A study of Mus musculus with 4 samples.

Results

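The nuclear genes of oxidative phosphorylation were examined complex by complex in lungs of mice given Sugen and hypoxia together and of normoxic mice. The group holds each gene whose GRCm38 symbol begins with Nduf, Uqcr, Atp5 or Cox followed by a digit, plus Sdha, Sdhb, Sdhc and Sdhd, with symbols marked -ps left out. That gave 107 of the 47729 genes in the count tables. Of these, 44 belong to complex I, 4 to complex II, 8 to complex III, 29 to complex IV and 17 to complex V, and the other 5 are processed pseudogenes (Cox20b, Cox6c2, Ndufa11b, Ndufb4c and Ndufs6b). Ndufa4 and its paralogue Ndufa4l2 carry complex I names but were placed with complex IV, to which the Ndufa4 protein has been reassigned.

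By the sex entries of the labels, the Sugen-hypoxia group had 2 libraries of polyA RNA, each from a pool of 2 male mice, and the normoxic group had 2 libraries, 1 from a pool of 3 females and 1 from a pool of 1 female and 2 males. Mice of both groups had the genotype given as Control (Rosa) and the strain given as BL/6. Sample titles also carry the term MSX1, whose meaning the labels do not give. Sugen inhibits the receptors of vascular endothelial growth factor and is combined with hypoxia in rodents to produce pulmonary hypertension. Here it was never given without hypoxia, and all treated mice were male, so the parts played by Sugen, hypoxia and sex cannot be told apart. The sources used here state neither age nor dose nor length of exposure. The series also concerns mutation of KCNK3, and mice with that mutation were not analysed here.

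Oxidative phosphorylation takes electrons from NADH through complex I and from succinate through complex II, passes them by way of ubiquinone to complex III and by cytochrome c to complex IV, and reduces oxygen there. Proton pumping by complexes I, III and IV drives ATP synthesis by complex V. Most subunits are encoded in the nucleus and assemble with a few encoded in mitochondrial DNA. In hypoxic cells, hypoxia-inducible factors are known to exchange or add subunits, and Cox4i2 and Ndufa4l2 are the members best known for that.

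Gene counts summed to 57.3 and 65.3 M reads (M, 1000000) in the Sugen-hypoxia libraries and to 67.1 and 58.2 M reads in the normoxic libraries. The labels give lung as the source while the extraction text names kidney, so markers were read first. Sftpc, the surfactant protein of alveolar type 2 cells, was at 12416 and 11403 CPM in Sugen-hypoxia and at 11565 and 11254 CPM in normoxia. The kidney genes Kap and Slc22a6 were at 0 in all 4 libraries, and Umod, the uromodulin of the thick ascending limb, was at most 0.124 CPM. The other kidney markers were at most 0.483 CPM, except Lrp2 and Cdh16, which lung also expresses. CPM here means reads per 1000000 counted reads after TMM scaling, a correction of library size that assumes most genes do not change. In whole lung, fewer cells of a type and less RNA per cell cannot be told apart.

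The oxidative phosphorylation genes stayed within a narrow band between the groups. Of the 101 members that passed the filter on low counts, 1 rose (Ndufa8) and 0 fell by edgeR's quasi-likelihood test at a Benjamini-Hochberg adjusted p of 0.05, beside 11.5% of all 18783 genes tested, 5.51% higher and 6.01% lower. Of genes that averaged 5 CPM or more, 15.2% passed. The median log2 fold change of the tested members, Sugen-hypoxia over normoxia, was 0.07, beside -0.0039 over all genes tested. Quartiles ran from -0.03 to 0.13 for members, against -0.27 to 0.18 for all genes, and the SD of the log2 fold changes was 0.18 for members, against 0.63 for all genes. Members were at higher levels, with medians of 33.5 to 34.4 CPM over the libraries, against 13.6 to 14.2 CPM for all genes tested. The quartiles and SDs were not compared at matched levels.

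The intervals say how much change these 4 libraries leave room for. For 91 of the 101 tested members the 95% interval of the fold change lay within 1.5-fold in either direction, beside 50.4% of all genes and 76.7% of genes with at least 5 CPM. For 42 members it lay within 1.2-fold, beside 15.1% of all genes, a share not matched for level. The median SE was 0.07 on the log2 scale, against 0.12 for all genes tested. At an unadjusted p under 0.05, 13 members were higher and 1 was lower, beside 14.9% and 15.2% of all genes. The libraries of the groups did not overlap for 43 members that were higher and 12 that were lower in Sugen-hypoxia, beside 30.0% and 31.7% of all genes. The 6 untested members were Cox7b2, Cox8c and 4 of the pseudogenes, all at 0.217 CPM or less in each library.

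**Figure D1:**
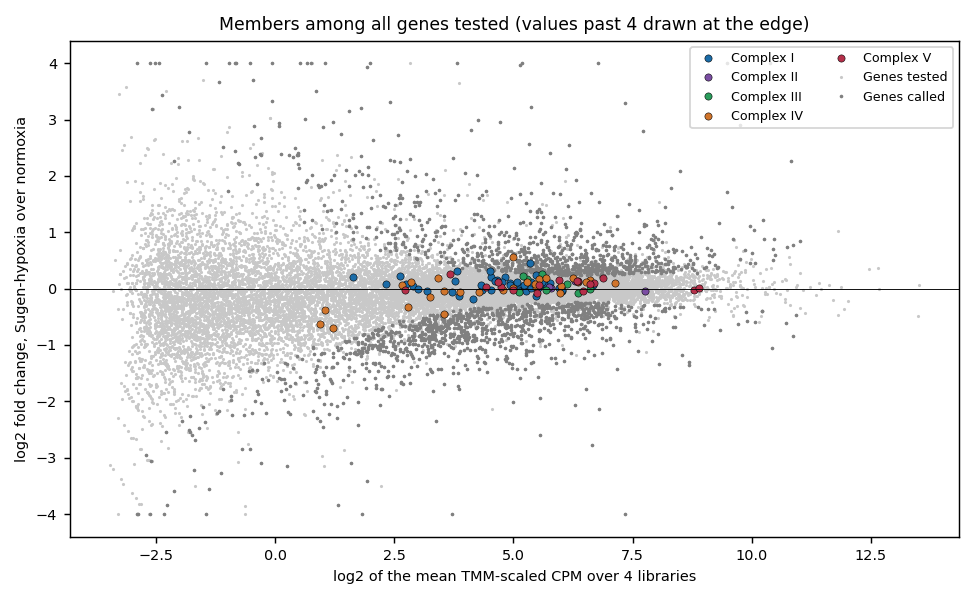
Each point is a gene, with the log2 of its mean TMM-scaled CPM on the x axis and its log2 fold change, Sugen-hypoxia over normoxia, on the y axis; coloured points are members by complex, and grey points are all 18783 genes tested. The members form a flat band around 0.07 at middle to high levels, with Ndufa4l2 highest at 0.57 and Cox7a1 lowest at -0.70.

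The sign of the small shared offset depended on how library sizes were scaled. With TMM, 68 tested members had a positive and 33 a negative log2 fold change, while upper-quartile scaling gave 53 and 48 and library size alone gave 49 and 52. By complex, medians with upper-quartile scaling were 0.02 for complexes I and V, -0.03 for II, -0.0048 for III and -0.01 for IV. Over all genes the calls split into 1035 higher and 1128 lower with TMM, 799 and 1424 with upper-quartile scaling, and 765 and 1584 with library size alone. The median over all genes moved with that of the members, to -0.05 and -0.07. A change of scaling shifts all genes by nearly the same amount. The members' median therefore stood 0.07 above that of all genes under each of these scalings, which is no test of that gap. With the fraction of males in each pool as a covariate that gap was 0.03, and the same value was found without normoxic replicate 1. Both treated pools were all male, so the covariate was fitted only from the difference between the normoxic pools. Both fits therefore rest on that difference, and neither separates sex from treatment. Summed over members, the scaled level was 5121 and 5230 CPM in Sugen-hypoxia and 4923 and 5023 CPM in normoxia. As an unscaled share of all gene counts, the members took 0.495% and 0.516% in Sugen-hypoxia and 0.501% and 0.517% in normoxia. The scaled sums did not overlap between the groups, whereas the unscaled shares did.

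Complex I, the NADH dehydrogenase and largest complex of the chain, had 1 of its 44 members higher and 0 lower, with a median log2 fold change of 0.07. Its summed level was 1443 and 1442 CPM in Sugen-hypoxia and 1356 and 1388 CPM in normoxia. As an unscaled share of all gene counts, it took 0.139% and 0.142% in Sugen-hypoxia and 0.138% and 0.143% in normoxia, so these shares overlapped. The 7 core subunits, which carry the flavin and the iron-sulfur clusters, had a median of 0.02 and 0 calls. Ndufs1, the large iron-sulfur subunit that takes electrons from the flavin, was at 61.5 and 65.5 CPM in Sugen-hypoxia and at 63.6 and 67.9 CPM in normoxia. Its log2 fold change of -0.05 ± 0.07 (SE) had an adjusted p of 0.663 in edgeR, and the groups overlapped. Ndufv1, which binds NADH and the flavin, was at 67.5 and 60.5 CPM in Sugen-hypoxia and at 63.2 and 67.4 CPM in normoxia. Its groups also overlapped, with a log2 fold change of -0.03 ± 0.08 (SE; edgeR adjusted p = 0.835).

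Of the 29 accessory subunits, which surround the core and stabilise it, 24 had a positive and 5 a negative log2 fold change, with a median of 0.09. Ndufa8, a small twin-CX9C accessory subunit on the intermembrane-space side, was the member that rose. It had 48.2 and 46.0 CPM in Sugen-hypoxia and 34.3 and 34.4 CPM in normoxia, so both treated pools stood clear of both normoxic pools. The difference was 1.37-fold, a log2 fold change of 0.46 ± 0.06 (SE, n = 2 libraries a group), with an adjusted p of 0.0130 by edgeR's quasi-likelihood test. Over the 13 alternative fits its log2 fold change ran from 0.39 to 0.49. The call was lost without normoxic replicate 1 (edgeR adjusted p = 0.150), without normoxic replicate 2 (edgeR adjusted p = 0.143) and with the male fraction as a covariate (edgeR adjusted p = 0.507), while the log2 fold change stayed at 0.45 to 0.46.

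Ndufa8 lies at chr2:36036326-36049406 on the minus strand of GRCm38. The 250 bases before its RefSeq start (GRCm38.p6, chr2:36049339-36049588, minus strand) are shown because Ndufa8 is the member that rose. Capitals mark exact matches to the core of the nuclear respiratory factor 1 site, GCATGCGC, and to the E-box CAGCTG, both searched on both strands. The former match starts 8 bases before the RefSeq start. That start lies inside the gene as placed above, so the part of the stretch up to 36049406 falls within the gene. The nuclear respiratory factor 1 match is in that part.
Ndufa8: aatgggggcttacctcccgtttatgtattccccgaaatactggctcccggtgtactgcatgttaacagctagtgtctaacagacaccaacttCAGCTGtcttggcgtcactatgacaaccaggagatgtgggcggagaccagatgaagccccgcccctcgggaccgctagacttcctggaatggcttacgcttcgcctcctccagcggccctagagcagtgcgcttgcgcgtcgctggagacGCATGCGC

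The nuclear respiratory factor 1 core was found near the start of a minority of these genes, a larger share than over all genes. RefSeq windows of 300 bases, 250 before and 50 after the start, were found for 81 of the 102 members that are not pseudogenes, and 12 of the 81 (14.8%) held the core, against 3.05% of 27025 mouse genes. Besides Ndufa8 they were Atp5g2, Atp5k, Atp5l, Cox6a1, Ndufa11, Ndufa6, Ndufaf4, Ndufaf5, Sdhb, Uqcr11 and Uqcrc1. The ETS core CCGGAAG, bound by the GABP factors (nuclear respiratory factor 2), was in 28.4% of the members' windows and 9.93% of all windows. The YY1 core AAGATGG was in 16.0% of the members' windows and 7.28% of all. The TATA box TATAAA was in 9.88% of the members' windows and 15.7% of all, and the E-box CAGCTG in 7.41% and 18.3%. No motif contains another, and a match is only a match of letters. Windows of members and of all genes were not matched for base composition.

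Other accessory subunits came close to the threshold without passing it, and they are named here after their values were seen. Ndufa12, which sits between the NADH-oxidising arm and the rest of the complex, was at 24.8 and 25.9 CPM in Sugen-hypoxia and at 21.0 and 19.9 CPM in normoxia. Its log2 fold change was 0.31 ± 0.08 (SE; edgeR adjusted p = 0.0576). Ndufs5, another intermembrane-space subunit, was at 15.2 and 15.9 CPM in Sugen-hypoxia and at 12.4 and 12.6 CPM in normoxia. Its log2 fold change was 0.31 ± 0.09 (SE; edgeR adjusted p = 0.0753). The groups did not overlap for either gene. Ndufa9, a subunit near the ubiquinone site, had the lowest value of the accessory subunits, with 43.2 and 42.3 CPM in Sugen-hypoxia, 43.9 and 49.2 CPM in normoxia and a log2 fold change of -0.13 ± 0.08 (SE; edgeR adjusted p = 0.321).

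The 8 assembly factors of complex I, which build the complex and are not part of the finished enzyme, had 0 calls and a median of 0.04. Their summed level was 79.2 and 74.4 CPM in Sugen-hypoxia and 76.5 and 78.7 CPM in normoxia. Ndufaf7, a methyltransferase of the mitochondrial matrix, had the lowest log2 fold change of complex I. It was at 16.6 and 16.6 CPM in Sugen-hypoxia and at 18.3 and 19.4 CPM in normoxia, a log2 fold change of -0.18 ± 0.08 (SE; edgeR adjusted p = 0.199). Per kilobase of exon, with all annotated exons of a gene pooled, assembly factors were low next to subunits. Their median was 4.26 and 4.15 CPM per kb in Sugen-hypoxia and 4.19 and 4.51 in normoxia, while that of the accessory subunits was 23.9 and 21.8 in Sugen-hypoxia and 22.7 and 23.4 in normoxia.

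Complex II, the succinate dehydrogenase shared with the tricarboxylic acid cycle, had 0 of 4 members called and a median of 0.02. Its summed level was 404 and 410 CPM in Sugen-hypoxia and 401 and 406 CPM in normoxia, so the groups overlapped. Sdha, the flavoprotein that oxidises succinate, was at 214 and 216 CPM in Sugen-hypoxia and at 222 and 220 CPM in normoxia, the lowest log2 fold change of the complex at -0.04 ± 0.06 (SE; edgeR adjusted p = 0.703). Sdhb, the iron-sulfur subunit, was at 54.7 and 56.2 CPM in Sugen-hypoxia and at 55.4 and 54.9 CPM in normoxia. Of the membrane anchors, Sdhc was at 82.0 and 81.8 CPM in Sugen-hypoxia and at 72.2 and 77.7 CPM in normoxia, the highest log2 fold change of the complex at 0.13 ± 0.06 (SE; edgeR adjusted p = 0.224). Sdhd, the other anchor, was at 52.8 and 55.4 CPM in Sugen-hypoxia and at 52.0 and 53.5 CPM in normoxia. The 95% interval lay within 1.5-fold for all 4 genes.

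Complex III, the cytochrome bc1 complex, had 0 of 8 members called and a median of 0.05. Its summed level was 458 and 477 CPM in Sugen-hypoxia and 448 and 455 CPM in normoxia. The unscaled shares overlapped, at 0.0443% and 0.0470% in Sugen-hypoxia and 0.0457% and 0.0468% in normoxia. Uqcrfs1, the Rieske iron-sulfur protein, was at 51.2 and 50.5 CPM in Sugen-hypoxia and at 51.1 and 52.1 CPM in normoxia. The core protein Uqcrc1 was at 96.0 and 99.4 CPM in Sugen-hypoxia and at 98.8 and 96.4 CPM in normoxia. These catalytic and core genes overlapped between the groups. The other core protein, Uqcrc2, was lowest of the complex, with 77.5 and 81.4 CPM in Sugen-hypoxia, 83.8 and 84.2 CPM in normoxia and a log2 fold change of -0.08 ± 0.06 (SE; edgeR adjusted p = 0.383).

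Uqcrb, a small subunit near the ubiquinone site, was the highest of complex III. It was at 51.6 and 54.5 CPM in Sugen-hypoxia and at 45.3 and 43.7 CPM in normoxia, and the groups did not overlap. Its log2 fold change was 0.25 ± 0.06 (SE), with an adjusted p of 0.0577 in edgeR, just outside the threshold. It was called by DESeq2 (adjusted p = 0.0495), by edgeR without a filter on low counts (adjusted p = 0.0370) and by edgeR without Sugen-hypoxia replicate 1 (0.29, adjusted p = 0.00669) or replicate 2 (0.22, adjusted p = 0.0386).

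Complex IV, the cytochrome c oxidase, had a wider spread of log2 fold changes than any other complex. Its 27 tested members had 0 calls, a median of 0.04 and an SD of log2 fold changes of 0.27, against 0.07 to 0.13 in the other complexes. The SD was 0.09 for its general subunits, 0.45 for its tissue isoforms and 0.25 for its assembly and supercomplex factors. The median SE of these lists was 0.06, 0.18 and 0.10, so part of the spread is measurement error. The general subunits, present in most tissues, and the tissue isoforms gave different values. The 11 general subunits had a median of 0.11, with 10 positive and 1 negative. Their summed level was 765 and 786 CPM in Sugen-hypoxia and 711 and 738 CPM in normoxia. Their unscaled shares overlapped, at 0.0740% and 0.0775% in Sugen-hypoxia and 0.0723% and 0.0760% in normoxia. The 6 tested tissue isoforms had a median of -0.26, with 2 positive and 4 negative, and their summed level was 112 and 90.3 CPM in Sugen-hypoxia and 91.2 and 92.6 CPM in normoxia.

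**Figure D2:**
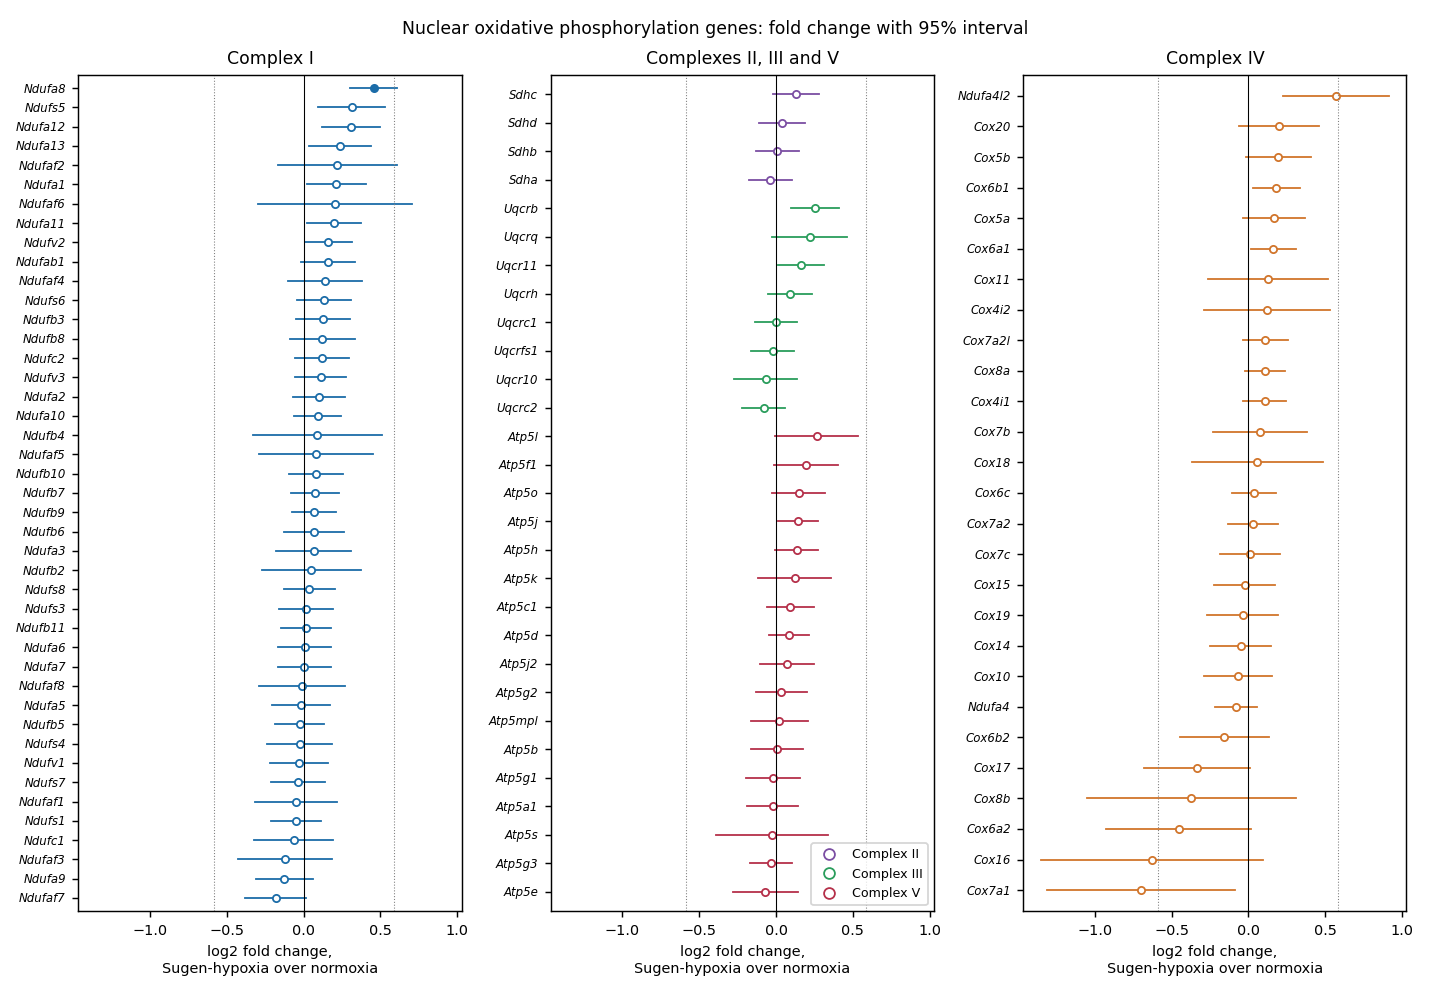
Log2 fold change, Sugen-hypoxia over normoxia (x axis), with its 95% interval for tested members other than pseudogenes, 1 of complex I not shown, ordered by value within each complex; the filled point passed adjusted p 0.05, and dotted lines mark 1.5-fold. Most intervals cross 0 and stay inside the dotted lines; values run from Ndufa4l2 at 0.57 to Cox7a1 at -0.70, and the widest intervals are those of Cox16, Cox8b and Cox7a1.

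Among the general subunits, Cox4i1, the ubiquitous form of a regulatory subunit, was at 148 and 142 CPM in Sugen-hypoxia and at 137 and 133 CPM in normoxia. Its log2 fold change was 0.11 ± 0.06 (SE; edgeR adjusted p = 0.272). Cox6a1, the general form of a subunit with a muscle counterpart, was at 105 and 102 CPM in Sugen-hypoxia and at 89.9 and 95.5 CPM in normoxia, a log2 fold change of 0.16 ± 0.06 (SE; edgeR adjusted p = 0.134). Cox6b1, on the intermembrane-space side, was at 78.3 and 82.7 CPM in Sugen-hypoxia and at 69.0 and 73.0 CPM in normoxia, a log2 fold change of 0.18 ± 0.06 (SE; edgeR adjusted p = 0.118). All 3 had libraries that did not overlap between the groups, and none passed. Cox7a2 was at 43.5 and 46.0 CPM in Sugen-hypoxia and at 42.7 and 45.1 CPM in normoxia. Cox7b, on the X chromosome, was at 39.5 and 50.3 CPM in Sugen-hypoxia and at 41.1 and 44.3 CPM in normoxia, so its treated pools lay on either side of the normoxic pools. Cox8a was at 94.5 and 95.5 CPM in Sugen-hypoxia and at 87.2 and 89.0 CPM in normoxia, a log2 fold change of 0.11 ± 0.05 (SE; edgeR adjusted p = 0.225).

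Ndufa4l2 had the highest log2 fold change of all members but missed the threshold. It is a target of hypoxia-inducible factors known to lower complex I activity in hypoxic cells, and its gene lies at chr10:127514967-127517154 on the plus strand. It was at 43.4 and 32.7 CPM in Sugen-hypoxia and at 24.9 and 26.3 CPM in normoxia. Both treated pools were above both normoxic pools, and the treated pools differed from each other more than the normoxic pools did. The log2 fold change was 0.57 ± 0.14 (SE), with an adjusted p of 0.0560 in edgeR. It was called by DESeq2 (adjusted p = 0.00130), by edgeR without a filter (adjusted p = 0.00170) and by edgeR without Sugen-hypoxia replicate 1 (0.36, adjusted p = 0.00670) or replicate 2 (0.76, adjusted p = 2.22e-06). Its general counterpart Ndufa4 was at 61.3 and 61.0 CPM in Sugen-hypoxia and at 63.8 and 65.8 CPM in normoxia, a log2 fold change of -0.08 ± 0.05 (SE; edgeR adjusted p = 0.360).

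Per kilobase of exon, Ndufa4l2 made up 47.1% and 40.4% of the Ndufa4 plus Ndufa4l2 level in Sugen-hypoxia and 33.0% and 33.5% in normoxia. The groups did not overlap in this share. Such shares depend on the pooled exon lengths, here 1095 bases for Ndufa4l2 and 1381 for Ndufa4, and may differ from shares of transcripts. Ndufa4l2 overlaps Shmt2, a gene of mitochondrial serine metabolism on the opposite strand, which was at 23.0 and 24.5 CPM in Sugen-hypoxia and at 23.1 and 23.4 CPM in normoxia. With counts taken without regard to strand, the log2 fold change of Ndufa4l2 was 0.57 as well.

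Markers of pericytes, the mural cells of small vessels, moved with Ndufa4l2. All 10 had positive log2 fold changes, with a median of 0.30, and 4 rose (Rgs5, Higd1b, Notch3 and Cspg4). Their summed level was 1329 and 1186 CPM in Sugen-hypoxia and 968 and 987 CPM in normoxia. The sum was higher in the treated pool with more Ndufa4l2, whereas the median marker was lower there, at 48.9 and 55.1 CPM in Sugen-hypoxia and 33.2 and 30.1 CPM in normoxia. Of 10 smooth muscle markers, 6 rose, and their sum was 2055 and 2099 CPM in Sugen-hypoxia and 1597 and 1706 CPM in normoxia. The part of either cell type in the Ndufa4l2 level was not tested.

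Cox4i2, the isoform of Cox4i1 that is most abundant in lung and known for a role in oxygen sensing of pulmonary vessels in mice, did not differ beyond its spread. It was at 47.9 and 33.8 CPM in Sugen-hypoxia and at 35.7 and 39.5 CPM in normoxia, so its highest and its lowest library were the treated pools. The log2 fold change was 0.12 ± 0.17 (SE; edgeR adjusted p = 0.675), with a 95% interval from -0.29 to 0.53. Per kilobase, Cox4i2 made up 39.0% and 31.9% of the Cox4i1 plus Cox4i2 level in Sugen-hypoxia and 34.0% and 36.9% in normoxia. The pooled exon lengths behind this share were 788 bases for Cox4i2 and 1550 for Cox4i1, so it may differ from the share of transcripts. In mean CPM, Cox4i2 was at 39.2 and Cox4i1 at 140. Without Sugen-hypoxia replicate 2 it was called higher (0.35, edgeR adjusted p = 0.00346), and without replicate 1 its log2 fold change was -0.15 (edgeR adjusted p = 0.234). Sugen-hypoxia replicate 1, the pool with more Cox4i2, was also the pool with more Ndufa4l2.

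The heart and skeletal muscle isoforms of complex IV had negative log2 fold changes, none of which passed. Cox6a2 was at 8.18 and 11.4 CPM in Sugen-hypoxia and at 14.7 and 12.1 CPM in normoxia, a log2 fold change of -0.45 ± 0.19 (SE; edgeR adjusted p = 0.178). Cox7a1 was at 1.61 and 1.94 CPM in Sugen-hypoxia and at 2.53 and 3.24 CPM in normoxia, a log2 fold change of -0.70 ± 0.25 (SE; edgeR adjusted p = 0.127). For both, each treated pool was below each normoxic pool. Cox8b, also found in brown fat, was at 2.11 and 1.52 CPM in Sugen-hypoxia and at 2.60 and 2.09 CPM in normoxia, with overlapping groups and a log2 fold change of -0.37 ± 0.27 (SE; edgeR adjusted p = 0.411). Without Sugen-hypoxia replicate 2, Cox6a2 (-0.71, edgeR adjusted p = 0.00157) and Cox7a1 (-0.84, edgeR adjusted p = 0.0445) were called lower. With the male fraction as a covariate, their values were -0.17 (edgeR adjusted p = 0.912) and -1.04 (edgeR adjusted p = 0.590).

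Markers of cardiac muscle, which in mice sheathes the pulmonary veins, were on the same side. All 14 had negative log2 fold changes, with a median of -0.65, and 1 fell (Myl7, an atrial myosin light chain). Their summed level was 316 and 507 CPM in Sugen-hypoxia and 748 and 704 CPM in normoxia, lowest in the treated pool with the lowest Cox6a2 and Cox7a1, while Cox8b was lower in the other treated pool. Skeletal muscle markers did not move one way. Ckm is on both this list and the cardiac list and was tested, so it counts in both. Of the 4 tested of 10, 2 were positive and 2 negative with a median of -0.09, 1 rose (Myh1, a fast myosin heavy chain, at 1.93 and 0.792 CPM in Sugen-hypoxia and 0.278 and 0.234 CPM in normoxia), and the sum over the list was 10.6 and 13.4 CPM in Sugen-hypoxia and 12.2 and 14.5 CPM in normoxia. Of 9 fat markers 7 were tested and 0 passed, 2 were positive and 5 negative with a median of -0.14, and their sum was 21.5 and 36.1 CPM in Sugen-hypoxia and 33.9 and 23.2 CPM in normoxia. Ucp1, which defines brown fat, was at most 0.124 CPM. The part of muscle or fat in these isoform levels was not tested.

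**Figure D3:**
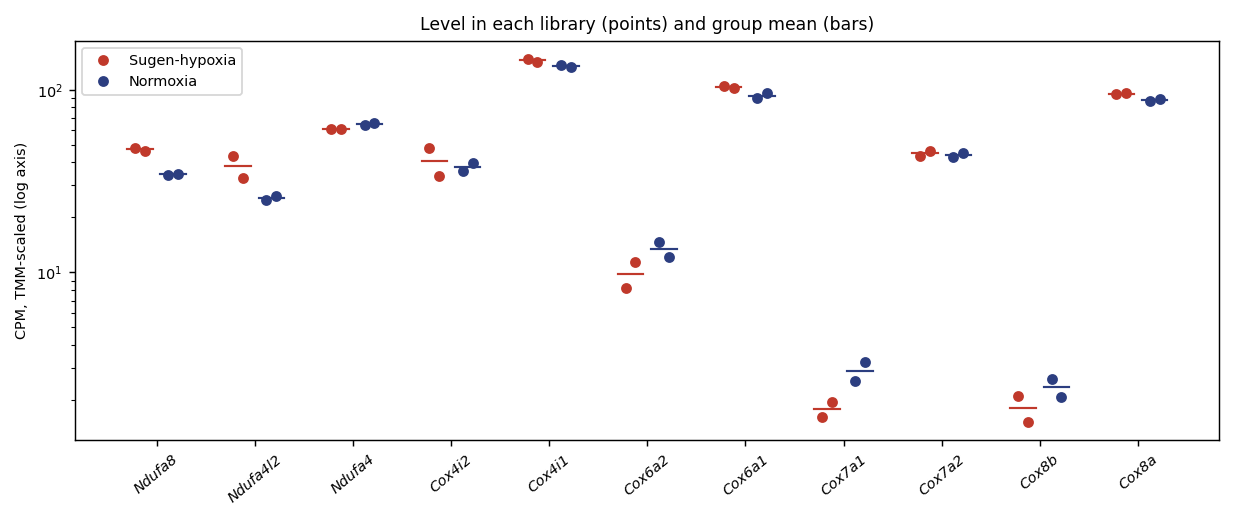
TMM-scaled CPM (log y axis) in each library for Ndufa8 and for isoform pairs, with the tissue isoform left of its general counterpart; points are libraries, Sugen-hypoxia on the left of normoxia, and bars are group means of 2. Ndufa8 and Ndufa4l2 are higher in both treated pools, Cox6a2 and Cox7a1 are lower in both, and Cox4i2 and Cox8b overlap.

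Set beside the general forms per kilobase of pooled exon, the muscle isoforms were a small part of each pair. Cox6a2 made up 7.45% and 10.3% of the Cox6a1 plus Cox6a2 level in Sugen-hypoxia and 14.5% and 11.6% in normoxia. Cox7a1 made up 6.12% and 6.92% of the Cox7a1 plus Cox7a2 level in Sugen-hypoxia and 9.47% and 11.2% in normoxia. Cox8b made up 3.70% and 2.67% of the Cox8a plus Cox8b level in Sugen-hypoxia and 4.89% and 3.87% in normoxia. All 3 took a smaller share in both treated pools than in either normoxic pool, although Cox8b overlapped between the groups in CPM. The pattern was not particular to muscle isoforms. Cox6b2, known from testis, made up 6.88% and 6.41% of the Cox6b1 plus Cox6b2 level in Sugen-hypoxia and 8.97% and 7.56% in normoxia. Of all genes tested, 31.7% were lower in CPM in both treated pools than in either normoxic pool.

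The 250 bases before the RefSeq starts of Cox7a1 (GRCm38.p6, chr7:30183921-30184170, plus strand) and Cox8b (GRCm38.p6, chr7:140900447-140900696, minus strand) are shown for contrast with Ndufa8, as muscle isoforms with negative log2 fold changes. None of the 5 motifs is in the Cox7a1 stretch. In the gene annotation used for coordinates here, Cox7a1 starts at 30184144, so the last bases of its stretch lie inside the gene. Capitals mark the E-box CAGCTG in that of Cox8b.
Cox7a1: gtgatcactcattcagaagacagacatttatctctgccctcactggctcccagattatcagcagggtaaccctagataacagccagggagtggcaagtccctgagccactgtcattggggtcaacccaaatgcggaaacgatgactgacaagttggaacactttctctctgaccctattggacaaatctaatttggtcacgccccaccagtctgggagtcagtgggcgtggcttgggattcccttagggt
Cox8b: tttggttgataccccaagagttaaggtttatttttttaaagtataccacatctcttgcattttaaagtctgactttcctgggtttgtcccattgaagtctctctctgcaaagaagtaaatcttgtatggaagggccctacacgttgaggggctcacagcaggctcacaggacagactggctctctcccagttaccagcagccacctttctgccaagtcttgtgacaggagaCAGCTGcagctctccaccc

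The isoforms known from testis were at or near 0 with an exception. Cox7b2 was at 0.0361 and 0 CPM in Sugen-hypoxia and at 0.0293 and 0 CPM in normoxia. Cox8c was at 0 and 0.0311 CPM in Sugen-hypoxia and at 0 in both normoxic libraries. Cox6b2 was the exception, at 9.06 and 8.87 CPM in Sugen-hypoxia and at 10.6 and 9.34 CPM in normoxia, a log2 fold change of -0.16 ± 0.12 (SE; edgeR adjusted p = 0.411). Of 8 testis markers, the protamine and spermatid genes among them, 4 were at 0 in all 4 libraries and the rest reached at most 0.155 CPM. All treated mice were male, so sex and treatment cannot be told apart for Cox6b2. The source of its reads was not tested.

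The 10 assembly and supercomplex factors of complex IV had 0 calls and a median of -0.03. Cox7a2l, which joins complexes III and IV in supercomplexes, was at 85.8 and 84.7 CPM in Sugen-hypoxia and at 81.7 and 76.1 CPM in normoxia, a log2 fold change of 0.11 ± 0.06 (SE; edgeR adjusted p = 0.278). The lowest values were those of Cox16 and Cox17, named after their values were seen. Cox17, the copper chaperone that feeds the oxidase, was at 5.74 and 6.47 CPM in Sugen-hypoxia and at 7.33 and 8.08 CPM in normoxia, a log2 fold change of -0.33 ± 0.14 (SE; edgeR adjusted p = 0.177). Cox16, an assembly factor, was at 1.57 and 1.44 CPM in Sugen-hypoxia and at 1.84 and 2.82 CPM in normoxia, a log2 fold change of -0.63 ± 0.29 (SE; edgeR adjusted p = 0.216). Cox16 shares its strand with overlapping genes, so its count may miss or mix reads. Cox10 and Cox15, which make the haem of the oxidase, had log2 fold changes of -0.07 and -0.02.

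Complex V, the ATP synthase, had 0 of 17 members called, a median of 0.07 and all 17 intervals within 1.5-fold. Its summed level was 1748 and 1834 CPM in Sugen-hypoxia and 1728 and 1756 CPM in normoxia, so the groups overlapped. Atp5a1 and Atp5b, the alpha and beta subunits of the catalytic head, took the most reads of all members. Atp5a1 was at 430 and 453 CPM in Sugen-hypoxia and at 447 and 449 CPM in normoxia, a log2 fold change of -0.02 ± 0.07 (SE; edgeR adjusted p = 0.860). Atp5b was at 463 and 488 CPM in Sugen-hypoxia and at 467 and 478 CPM in normoxia, a log2 fold change of 0.01 ± 0.07 (SE; edgeR adjusted p = 0.950). For both, the treated pools lay on either side of the normoxic pools. Atp5c1, the gamma subunit that turns in the head, was at 104 and 108 CPM in Sugen-hypoxia and at 95.9 and 103 CPM in normoxia, a log2 fold change of 0.09 ± 0.06 (SE; edgeR adjusted p = 0.365).

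Atp5l, the membrane subunit g, was the highest of complex V, with 13.9 and 14.0 CPM in Sugen-hypoxia, 12.5 and 10.7 CPM in normoxia and a log2 fold change of 0.26 ± 0.11 (SE; edgeR adjusted p = 0.175). Atp5e, the epsilon subunit, was the lowest, with 44.8 and 43.5 CPM in Sugen-hypoxia, 43.0 and 49.7 CPM in normoxia and a log2 fold change of -0.07 ± 0.08 (SE; edgeR adjusted p = 0.630). The genes of the proton-carrying c ring encode the same mature protein and were near 0 in log2 fold change, at -0.02 for Atp5g1, 0.03 for Atp5g2 and -0.03 for Atp5g3. Per kilobase of pooled exon, Atp5g3 was the highest of them at 40.1 CPM per kb over the 4 libraries. Atp5g2 was at 15.9 and Atp5g1 at 6.45. The order of Atp5g2 and Atp5g1 depends on the exon lengths used, 1675 and 4912 bases. In mean CPM, Atp5g1 was above Atp5g2, at 31.7 against 26.7, and Atp5g3 was at 87.5. Over all members the highest means per kilobase were those of Cox8a (148), Atp5a1 (142), Cox6a1 (140), Atp5b (112) and Cox6b1 (107).

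Members with less annotated exon had the higher median values, where exon length pools all exons of a gene and is not the length of a transcript. The median log2 fold change was 0.12 for the 24 members with under 1 kb of exon, 0.08 for the 37 with 1 to 2 kb and 0.01 for the 39 with 2 kb and over, all of them other than pseudogenes. Over all protein-coding genes tested, the same bins had medians of -0.0063, 0.01 and 0.01. Over members the Spearman correlation of exon length with log2 fold change was -0.14 and the Pearson correlation was -0.03 (n = 101 genes of the same 4 libraries), a description across genes that are not replicates.

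Related lists outside the symbol rule are set beside all genes tested, of which 5.51% were called higher and 6.01% lower. The mitochondrially encoded subunits, 12 of 13 tested, had 0 calls and a median of -0.02. Their log2 fold changes ran from -1.96 to 0.35, and 7 of the 12 intervals lay within 1.5-fold. Their summed level was 18530 and 19485 CPM in Sugen-hypoxia and 19365 and 18617 CPM in normoxia. Among them mt-Co1 was at 6394 and 6594 CPM in Sugen-hypoxia and at 6687 and 6339 CPM in normoxia. mt-Co2 was at 0.379 and 0.373 CPM in Sugen-hypoxia and at 0.351 and 0.234 CPM in normoxia, and multimapping reads were left out of gene counts. Tricarboxylic acid cycle genes had 0 of 18 calls, a median of 0.01 and all 18 intervals within 1.5-fold. Mitochondrial ribosome genes had 0 of 77 calls and a median of 0.08, with 55 positive and 22 negative. Assembly factors named otherwise had 0 of 31 calls and a median of 0.01.

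Of 13 other nuclear respiration genes, 1 rose and 0 fell, beside 5.51% and 6.01% of all genes tested, with a median of 0.14. The riser was Higd2a, a small factor of supercomplex formation, at 45.1 and 44.2 CPM in Sugen-hypoxia and at 35.0 and 32.9 CPM in normoxia, a log2 fold change of 0.40 ± 0.06 (SE; edgeR adjusted p = 0.0206). Of 18 regulators of mitochondrial biogenesis, Ppargc1a, Nrf1, Gabpa and Tfam among them, 0 passed, with a median of -0.0061. Of 13 regulators linked to hypoxia-inducible factors, 2 rose and 1 fell, beside the same shares of all genes. Their median was 0.04, with 9 positive and 4 negative. Their summed level was lower in both treated pools, at 3990 and 3557 CPM in Sugen-hypoxia and 4987 and 4725 CPM in normoxia. Bnip3, a mitophagy receptor, rose to 88.4 and 67.5 CPM in Sugen-hypoxia, against 52.5 and 48.0 CPM in normoxia (log2 fold change 0.63 ± 0.13 SE; edgeR adjusted p = 0.0402). Hif1a rose to 126 and 139 CPM in Sugen-hypoxia, against 102 and 96.1 CPM in normoxia (log2 fold change 0.42 ± 0.07 SE; edgeR adjusted p = 0.0235). Pdk2, a kinase that restrains pyruvate dehydrogenase, fell to 48.1 and 44.2 CPM in Sugen-hypoxia, against 57.9 and 56.2 CPM in normoxia (log2 fold change -0.31 ± 0.07 SE; edgeR adjusted p = 0.0439).

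**Figure D4:**
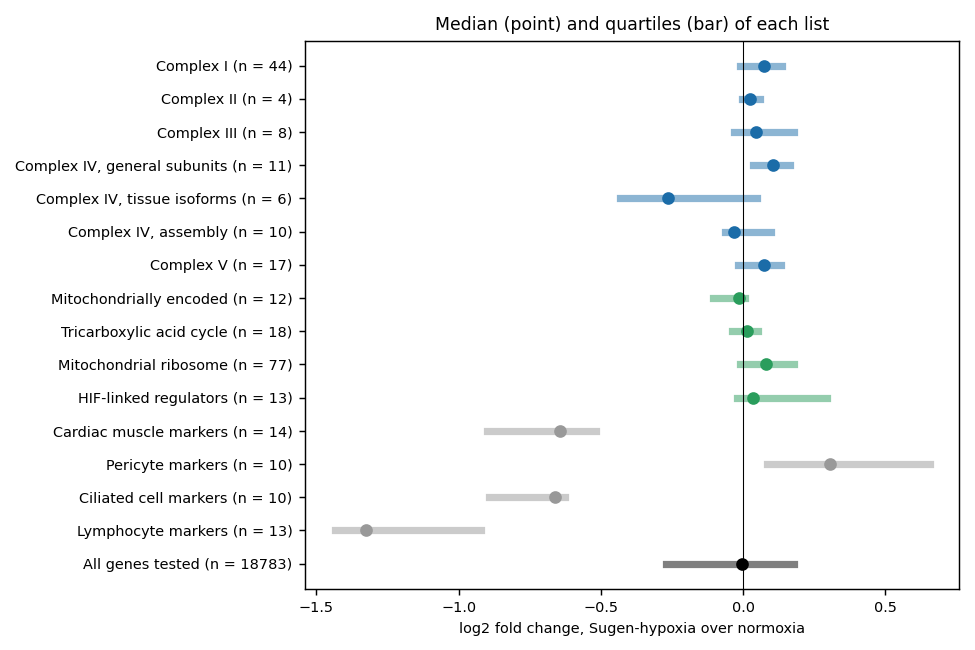
Median log2 fold change, Sugen-hypoxia over normoxia (point), and quartiles (bar) of each list, with the number of tested genes; complexes are blue, other mitochondrial and hypoxia lists green, cell markers grey and all genes tested black at the bottom. The medians of the complexes run from -0.03 to 0.11, except that of the tissue isoforms of complex IV at -0.26, while the cell marker lists drawn range from -1.32 for lymphocytes to 0.30 for pericytes.

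Markers of ciliated cells and lymphocytes were lower in Sugen-hypoxia, while those of alveolar type 2 cells had a median log2 fold change of -0.07 with 4 positive and 4 negative. All 10 ciliated cell markers fell, with a median of -0.66 and sums of 440 and 458 CPM in Sugen-hypoxia and 709 and 702 CPM in normoxia. Of 13 lymphocyte markers 11 fell, with a median of -1.32 and sums of 106 and 128 CPM in Sugen-hypoxia and 283 and 255 CPM in normoxia. The part of these cells in the members' levels was not tested.

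How many members were called rested on single libraries. Without Sugen-hypoxia replicate 1, 13 members were higher and 0 lower, beside 13.4% and 12.3% of all genes, and the 13 were Ndufa8, Ndufa12, Ndufa13, Ndufs5, Ndufv2, Uqcrb, Uqcrq, Ndufa4l2, Cox5a, Cox6b1, Cox7b, Atp5f1 and Atp5o. Without Sugen-hypoxia replicate 2, 6 were higher (Ndufa8, Ndufa12, Uqcrb, Ndufa4l2, Cox4i2 and Cox6a1) and 2 lower (Cox6a2 and Cox7a1), beside 11.9% and 12.5% of all genes. Without normoxic replicate 1 or 2, 0 members were called in edgeR, beside 0.128% and 0.577% of all genes. In such fits the lone library is assumed to vary like the other group. DESeq2 called 3 members higher (Ndufa8, Ndufa4l2 and Uqcrb) and 0 lower, beside 9.18% and 9.03% of all genes. Without a filter on low counts, edgeR called 4 members higher (those 3 and Ndufa12) and 0 lower, beside 6.52% and 6.91% of all genes. With the male fraction as a covariate edgeR called 0 members, beside 0.0586% of all genes, and the 3 X-linked members (Ndufa1, Ndufb11 and Cox7b) were not called in the fit on group alone.

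**Figure D5:**
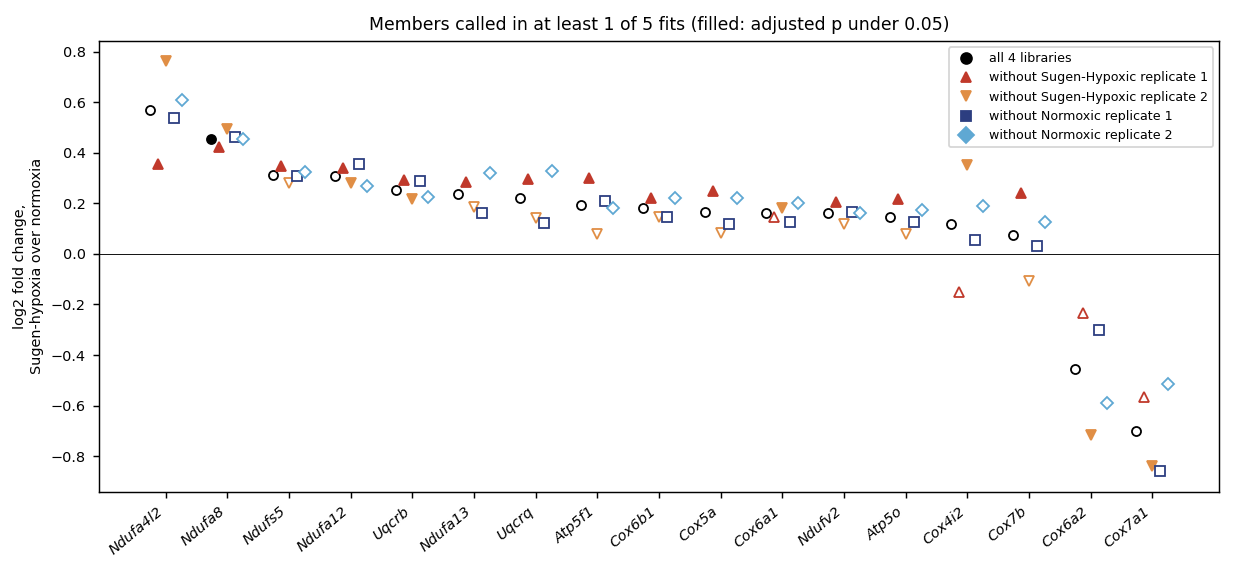
Log2 fold change, Sugen-hypoxia over normoxia (y axis), of the 17 members called in at least 1 of 5 fits: all 4 libraries and each library left out in turn; filled marks passed adjusted p 0.05. Ndufa8 stays between 0.42 and 0.49, Ndufa4l2 ranges from 0.36 to 0.76, and Cox4i2 and Cox7b change sign with the treated pool left out.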

How the data were processed

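Each deposited file holds the authors' raw read counts per gene for 1 library, in unstranded, forward-strand and reverse-strand columns. STAR 2.5.1b, HTSeq and GRCm38.p4 are named in the submitters' processing notes; the strandedness of the kit is not given in the sources used here. Reverse-strand counts were 20.9 to 24.9 times forward-strand counts and were used. Unmapped (6.45 to 7.55% of reads), multimapping (4.50 to 4.54%), no-feature (7.73 to 9.98%) and ambiguous (1.10 to 1.13%) reads stayed out of library sizes, and genes with near-identical copies may be undercounted.

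Symbols, exon lengths and coordinates came from GENCODE M21 (GRCm38), which matched 47310 of 47729 genes. The exon length of a gene was the union of its annotated exons, so it can exceed the length of its main transcript. Genes passing edgeR's filterByExpr (18783) were scaled by TMM (factors 0.967 and 0.986 in Sugen-hypoxia, 1.02 and 1.03 in normoxia) and tested two-sided with edgeR 4.0.16's quasi-likelihood test (R 4.3.3) on group alone, adjusted by Benjamini-Hochberg over all genes. SEs came from the F statistic. The test was also run on simulated counts drawn without any effect of sex, so that run does not bear on the sex difference between the groups. Libraries were taken as pools of separate animals from their sex entries, and replicate numbers follow record order and pair nothing. Low members rest on few reads (Cox7a1 on 89 to 194 a library), so counting error adds to the spread between 2 pools a group.

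Members and lists were chosen with earlier results of these data known. Named were called members, the extremes of each complex, fixed isoform sets and core subunits; others were added after their values were seen, and 1 complex I member is counted but not reported here by name. DESeq2 1.42.0 and 12 other alternatives were run.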

Additional observations from a re-analysis of the deposited data

How the results depend on the processing

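Over 13 alternatives, the log2 fold changes of named genes kept direction and side of the threshold in 354 refits, while 32 moved without a call, 14 gained a call and 3 lost it. The 3 losses were those of Ndufa8. The members' median log2 fold change of 0.07 was 0.017 with upper-quartile scaling, -0.0014 with library size only, 0.017 with the male fraction as a covariate and 0.036 to 0.073 with a library left out. Members called higher, 1 with all libraries, were 4 without a filter, 3 in DESeq2, 0 with the male fraction and 0 to 13 with a library left out; members called lower were 0 to 2 with a library left out. Over all genes, 1035 were called higher and 1128 lower; these counts were 1775 and 1882 without a filter, 4 and 7 with the male fraction, and 17 to 2663 and 8 to 2454 with a library left out. The male-fraction fit has 1 residual degree of freedom, so its lack of calls says nothing about stability. Cause of these shifts was not tested. No paired analysis was possible because the labels give no replicate numbers shared across groups.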
